A study of Mus musculus with 96 samples.

Results

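The comparison described here set 4 libraries of cardiac fibroblasts (FB) taken on Day 3 after myocardial infarction against 4 FB libraries of Day 0, chosen by their labels alone, 8 of the 96 total RNA-Seq libraries of the series. The series covered 4 cell types (FB, cardiomyocytes, endothelial cells and hematopoietic cells, called CM, EC and HC) at 6 days, with 4 libraries in each of its 24 groups. Animals were male C57Bl/6J mice of 12 to 14 weeks. Day 3 hearts had a permanent ligation of the left anterior descending coronary artery 3 days earlier, whereas Day 0 hearts came from mice without an infarction, so that surgery and infarction cannot be told apart between the 2 groups. FB were the cells that adhered to a dish after bead depletion of CD45-positive and CD144-positive cells, and each library held the pooled RNA of about 3 mice. Day 0 and Day 3 libraries came from different animals. The study divided the RNA samples of each day and cell type among 4 pools. It called these biological replicates in some passages and technical replicates in others, so that part of the spread behind the p-values below may be technical. In bulk samples such as these, fewer cells of a type and less RNA per cell cannot be told apart.

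Resident cardiac fibroblasts keep up the collagen network of the heart and are marked by Pdgfra and Tcf21. After an infarction they enter the cell cycle within days, take on a contractile program with Acta2 (smooth muscle actin) and secrete fibrillar collagens and a provisional matrix of fibronectin, tenascin and periostin, which later matures into scar. Day 3 falls in the time when inflammatory and proliferative responses overlap.

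The 4 Day 3 libraries fell into 2 pairs, which are given apart for many genes and lists below. Counts given without a pair are from all 4 Day 3 libraries, and the pairs may differ there. Replicates 1 and 4, here the deep pair, held 29057708 and 18528788 estimated reads, and replicates 2 and 3, the shallow pair, held 2664338 and 3508819, against 25913030 to 36545715 in the Day 0 libraries. Ribosomal RNA genes took 8.73% and 19.6% of reads in the deep pair and 35.6% and 35.2% in the shallow pair, against 4.77% to 7.75% at Day 0. The summed level of 562 rare genes that lie on the other strand of an abundant gene was 133 and 110 CPM (reads per 1000000 estimated reads) in the deep pair and 777 and 836 CPM in the shallow pair, against 95.5 to 104 CPM at Day 0. Pearson correlation of log2 CPM across genes was 0.971 within the deep pair, 0.951 within the shallow pair, 0.799 to 0.833 across the pairs and 0.991 to 0.995 among Day 0 libraries. All later levels are CPM scaled by the trimmed mean of M values (TMM), and each fold change is a log2 value with its standard error.

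**Figure D1:**
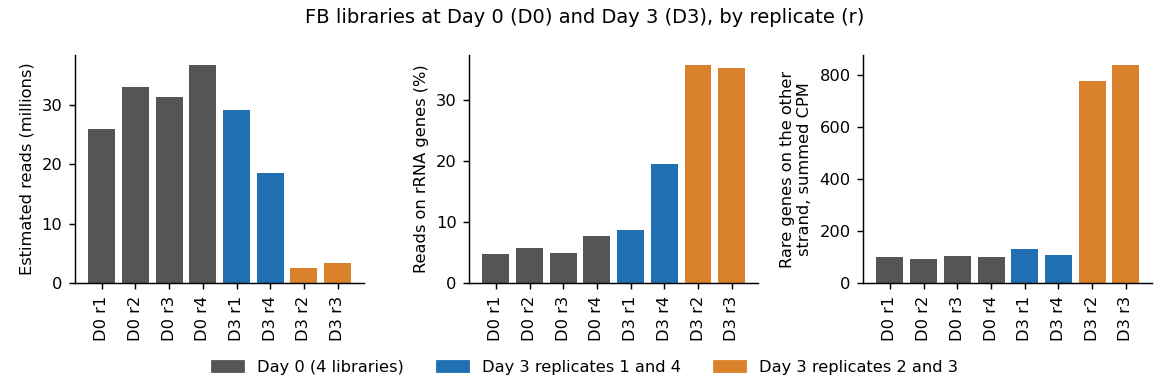
Bars give, for each of the 8 libraries, estimated reads, the percentage of reads on rRNA genes, and the summed CPM of 562 rare genes on the other strand of an abundant gene. Grey marks Day 0, blue the deep pair and orange the shallow pair. The shallow pair is lowest in the first panel, at 2664338 and 3508819 reads, and highest in the other panels.

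Cardiac fibroblasts differed between Day 3 and Day 0 at a large share of all genes. Of 18658 genes tested with all 4 Day 3 libraries, 4810 were higher and 4352 lower at an adjusted p under 0.05, or 25.8% and 23.3%, with a median log2 fold change of -0.02 over all genes. On the deposited TPM values, which lie lower at Day 3 by a median of 0.70 on the log2(TPM + 1) scale, 4.06% of called genes were higher, against 52.5% here. With the deep pair alone 25% of genes were higher and 19.1% lower, and with the shallow pair alone 25.3% were higher and 28.1% lower. All 4 Day 3 libraries lay above all 4 Day 0 libraries for 16.9% of genes and below them for 20.9%. The fits of the 2 pairs share the Day 0 libraries. Of the genes called with all 4 libraries, 2413 higher and 2327 lower genes were called in the same direction in each pair, 1929 were called in the deep pair only and 2185 in the shallow pair only. Another 756 genes were called in opposite directions by the 2 pairs, 553 of them higher in the deep pair and lower in the shallow pair. Tested directly against each other, with no shared control, the pairs differed at 8138 of 20160 genes, or 40.4%, with 40.8% of the called genes higher in the shallow pair (49.2% with the size factors of DESeq2). Of the genes called in the same direction in each pair, 2941 were not called different between the pairs.

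The 12 highest of 1391 higher genes that were called in each pair, had no overlap between groups and a mean of at least 10 CPM included the secreted proteins Cthrc1, Tnc, Spp1 and Ccn4. Cthrc1 (collagen triple helix repeat containing 1, chr15:39076932-39087121, + strand of GRCm38), a secreted protein of injury-activated fibroblasts, stood at 0.980, 1.05, 0.902 and 0.799 CPM in the Day 0 libraries and at 217 and 292 in the deep pair and 449 and 362 in the shallow pair. Its log2 fold change was 8.45 ± 0.40 (adjusted p = 6.20e-12), 8.10 ± 0.41 with the deep pair and 8.72 ± 0.42 with the shallow pair. Every Day 3 library lay above every Day 0 library by more than 2 orders of magnitude, and the 2 pairs were not called different (adjusted p = 0.202). Tnc (tenascin C, chr4:63959785-64047015, - strand), a glycoprotein laid down in healing tissue, went from 14.2, 14.2, 19.01 and 14.6 CPM to 1422 and 1339.8 in the deep pair and 1059.7 and 1064 in the shallow pair, a log2 fold change of 6.30 ± 0.31 (adjusted p = 6.20e-12). The pairs were close for this gene, at 6.49 ± 0.32 and 6.05 ± 0.32. Spp1 (osteopontin, a secreted adhesive phosphoprotein) went from 0.700, 0.823, 1.23 and 1.31 CPM to 151 and 122 in the deep pair and 107 and 78.8 in the shallow pair, and Ccn4 (a Wnt-induced matricellular protein) from 0.980, 0.426, 0.752 and 0.906 CPM to 116 and 124 in the deep pair and 62.2 and 48.01 in the shallow pair. Their log2 fold changes were 6.81 ± 0.40 and 6.87 ± 0.52. The kinesin Kif26b stood at 0.420 to 0.666 CPM at Day 0 and at 88.2 to 166 CPM at Day 3 (7.75 ± 0.54), and Ptprn, a receptor-type phosphatase-like protein of secretory granules, at 0.0568 to 0.133 and 24.8 to 36.2 CPM (8.32 ± 0.85). Krt8, a keratin of simple epithelia and mesothelium, stood at 0.180 to 0.400 CPM at Day 0 and 10.1 to 44.3 CPM at Day 3 (6.55 ± 0.65), and Dmkn (dermokine) at 0.0902 to 0.490 and 12.2 to 35.1 CPM (6.77 ± 0.64).

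The remaining 4 of these genes need a limit beside their values. Serpinb2, a serine protease inhibitor induced in inflammation, had at most 3 reads in any Day 0 library and 45.7 and 91.7 CPM in the deep pair and 6.76 and 11.1 CPM in the shallow pair, so that no fold is given. The histone genes Hist1h2ad and Hist1h1b had log2 fold changes of 7.44 ± 1.01 and 6.28 ± 0.35, and copies of histone genes are near-identical, so that reads may be shared among them. Hist1h2ad was also higher in the shallow than in the deep pair, at 33.8 and 41.9 against 3.33 and 4.90 CPM. Lars2 (mitochondrial leucyl-tRNA synthetase) stood at 168, 126, 316 and 629 CPM at Day 0 and at 3833 and 36532 in the deep pair and 46761 and 55871 in the shallow pair, the lowest Day 3 level in the library with the lowest rRNA share and the highest in the shallow pair with the highest rRNA shares given above, whose part in the result was not tested.

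The 12 lowest of 1429 lower genes chosen in the same way had smaller changes, from -2.51 to -2.09 on the log2 scale. Wif1 (a secreted inhibitor of Wnt ligands, chr10:121033960-121100650, + strand) stood at 16.3, 21.5, 17.2 and 21.2 CPM at Day 0 and at 4.97 and 1.59 in the deep pair and 2.03 and 4.04 in the shallow pair. Its log2 fold change was -2.51 ± 0.31 (adjusted p = 1.22e-06), and the groups did not overlap. Col4a3 (a basement membrane collagen chain) went from 73.7–89.2 to 6.08–22.7 CPM (-2.49 ± 0.23), and Pcsk6 (a proprotein convertase) from 1005–1232 to 171–366 CPM (-2.13 ± 0.24). The lipid transporters Abca6 and Abca8b fell by 2.20 each on the log2 scale, and Gstm1 (a glutathione transferase), from 332–404 to 37.2–119 CPM, fell by 2.15. The others were Cd83 (-2.43 ± 0.28), Olfml2a (-2.33 ± 0.26), the chemokine scavenging receptor Ackr2 (-2.17 ± 0.24), the clock gene Npas2 (-2.13 ± 0.30), Efhd1 (-2.09 ± 0.25) and Plac9a. Plac9a stood at 88.2 to 116 CPM at Day 0, at 12.9 and 51.6 CPM in the deep pair and at 0 in both libraries of the shallow pair, and it has a near-identical copy, so that its counts are uncertain.

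**Figure D2:**
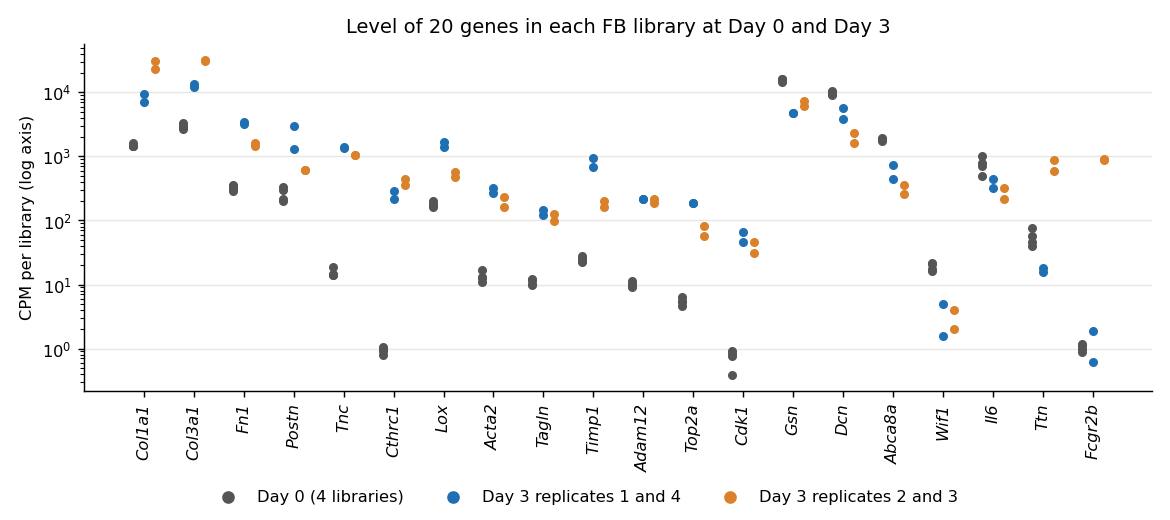
Each point is 1 library's level in CPM on a log axis for 20 genes, with Day 0 in grey, the deep pair in blue and the shallow pair in orange. For Cthrc1, Tnc, Acta2 and Adam12 both pairs sit together above Day 0, for Ttn only the shallow pair does, and for Gsn, Dcn, Abca8a and Wif1 both pairs sit below.

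Fibrillar collagens rose in both pairs, more so in the shallow one. These are the rope-like collagens of scar, with types I and III in the lead and types V and XI as regulators of fibril width. Of 11 tested, 9 were higher and none lower, with a median log2 fold change of 2.74. The deep pair gave 8 higher, 1 lower and a median of 1.70, and the shallow pair 10 higher and a median of 3.35. Col1a1 (chr11:94936224-94953042, + strand) stood at 1465, 1618, 1434 and 1432 CPM at Day 0 and at 7085 and 9379.6 in the deep pair and 30916 and 23109 in the shallow pair, a log2 fold change of 3.57 ± 0.36 (adjusted p = 9.32e-08). The groups did not overlap, yet the pairs differed by 1.67 ± 0.29 on the log2 scale (adjusted p = 8.25e-05). Col3a1, which the study followed in FB (chr1:45311538-45349706, + strand), went from 3035, 3385, 2896 and 2658 CPM to 12229 and 13739 in the deep pair and 32335 and 30476 in the shallow pair (2.89 ± 0.28, adjusted p = 5.31e-08), with 2.13 ± 0.20 in the deep and 3.35 ± 0.21 in the shallow pair. Col1a2, the partner chain of Col1a1, changed by 3.26 ± 0.33 and Col5a1 by 2.74 ± 0.38. The shallow pair was higher than the deep pair at 8 of these 11 genes. Col24a1 and Col11a1 were not called different between the pairs: Col24a1 went from 0.280–0.601 to 11.6–18.7 CPM (5.10 ± 0.49) and Col11a1 from 1.05–2.04 to 19.8–24.3 CPM (3.78 ± 0.50). Col5a3 was called higher with all 4 libraries (1.02 ± 0.33), but it stood at 193 and 212 CPM in the deep pair against 202 to 245 CPM at Day 0, so that its call rests on the shallow pair.

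Among 24 other collagens tested, 10 were higher and 4 lower (median 0.49), and the deep pair gave 8 higher and 7 lower of 25 (median 0.00). Col12a1, which binds fibril surfaces, went from 40.6–55.3 to 162–321 CPM (2.22 ± 0.28). Col6a1, of the beaded microfibrils, went opposite ways in the pairs, with 725 and 617 CPM in the deep and 2678 and 3130 CPM in the shallow pair against 833 to 1039 CPM at Day 0.

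The provisional matrix split into genes that rose and genes that fell. Of 22 provisional and matricellular genes, 10 were higher and 9 lower (median 0.06). Fn1 (fibronectin, chr1:71585520-71653200, - strand), the scaffold on which collagen assembles, went from 358, 349, 315 and 290.5 CPM to 3479 and 3165 in the deep pair and 1633 and 1430.3 in the shallow pair. Its log2 fold change was 2.89 ± 0.31 (adjusted p = 2.80e-07), 3.36 ± 0.30 in the deep and 2.18 ± 0.29 in the shallow pair. Postn (periostin, chr3:54361109-54391037, + strand), which helps collagen cross-linking, went from 214, 202, 337 and 298 CPM to 2956 and 1292 in the deep pair and 609.6 and 609 in the shallow pair (2.38 ± 0.43, adjusted p = 1.34e-04). Both stood above Day 0 in all 4 libraries, and both were lower in the shallow than in the deep pair, with a log2 difference of -1.85 ± 0.46 for Postn (adjusted p = 0.00321). Sparc, a collagen chaperone of the matrix, went from 1383–1573 to 4069.5–4799 CPM (1.61 ± 0.17) and was near equal in the pairs. Its relative Sparcl1 fell from 1242–1354 to 237–519 CPM (-1.80 ± 0.21), and the basement membrane linker Nid1 from 2262–2783 to 689–1393 CPM (-1.33 ± 0.19).

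Enzymes that modify, fold and cross-link collagen were mostly higher. Of 26 tested, 18 were higher and 2 lower (median 0.79, 0.96 in the deep and 0.55 in the shallow pair). P4ha3, a subunit of collagen prolyl 4-hydroxylase, went from 0.875, 0.795, 1.08 and 0.932 CPM to 29.2 and 33.2 in the deep pair and 35.1 and 31.3 in the shallow pair, a log2 fold change of 5.11 ± 0.30 (adjusted p = 1.05e-10) that was 5.09 and 5.12 in the pairs. P4hb, the shared subunit of that enzyme, went from 443–514 CPM to 965 and 1183 in the deep pair and 2789.7 and 2639.7 in the shallow pair (1.97 ± 0.25). Lox (lysyl oxidase), which starts the cross-links between collagen fibrils, went from 162–204 CPM to 1678 and 1421 in the deep pair and 568 and 484 in the shallow pair (2.53 ± 0.34, adjusted p = 4.92e-06). Pcolce2, an enhancer of procollagen cleavage, fell from 249–287 to 61.2–168 CPM (-1.23 ± 0.25). The secretory route showed the same direction, with 20 higher and 1 lower of 32 genes of ER to Golgi transport (median 0.61), but 9 of them were lower in the shallow pair and none in the deep pair. Of 25 genes of the unfolded protein response 10 were higher and 4 lower (median 0.15).

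Other matrix families moved down or both ways. Small leucine-rich proteoglycans, which coat and space collagen fibrils, had 1 higher and 7 lower members of 11 (median -1.33). Lum (lumican) stood at 1069 to 1209 CPM at Day 0 and at 913 and 595 in the deep pair and 147 and 138 in the shallow pair (-1.33 ± 0.37, adjusted p = 0.00546), with a larger fall in the shallow pair (log2 difference of the pairs -2.45 ± 0.19). Elastic fiber genes gave 4 higher and 5 lower of 14, and hyaluronan genes 5 higher and 5 lower of 14. Cemip, which degrades hyaluronan, went from 0.0301–0.350 to 14.7–22.3 CPM (6.85 ± 0.66), and the hyaluronan receptor Cd44 from 41.6–56.1 to 165–284 CPM (2.11 ± 0.27). Of 21 metalloproteinases and inhibitors 8 were higher and 8 lower. Adam12, a disintegrin metalloproteinase of activated stroma, went from 10.3, 9.54, 11.5 and 9.06 CPM to 219.6 and 214 in the deep pair and 186 and 216 in the shallow pair (4.38 ± 0.29, adjusted p = 3.49e-10). The inhibitor Timp1 went from 22.8, 22.9, 24.9 and 28.2 CPM to 679.8 and 961 in the deep pair and 199 and 164 in the shallow pair (4.35 ± 0.50, adjusted p = 8.73e-07), and its relative Timp3, which binds to the matrix, fell from 1278–1479 CPM to 711 and 671 in the deep pair and 197 and 204 in the shallow pair (-1.66 ± 0.29). Timp1 and Timp3 thus moved in opposite directions in every Day 3 library. The 12 genes of cartilage-like scar matrix gave 2 higher and 3 lower.

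Of 30 contractile and focal adhesion genes 23 rose and 2 fell (median 0.67, 0.93 in the deep and 0.44 in the shallow pair). Acta2, the actin of myofibroblasts and smooth muscle (chr19:34241090-34255590, - strand), stood at 12.9, 16.9, 12.6 and 11.1 CPM at Day 0 and at 265 and 317 in the deep pair and 235 and 165 in the shallow pair. Its log2 fold change was 4.20 ± 0.33 (adjusted p = 3.21e-09), with 4.46 ± 0.35 and 3.85 ± 0.37 in the pairs. Tagln (transgelin, an actin-binding protein) went from 9.84–11.98 to 97.5–148 CPM (3.49 ± 0.30), Palld (palladin, a stress fiber scaffold) from 9.59–11.5 to 143–205 CPM (4.06 ± 0.26) and Tpm2 (a tropomyosin) from 11.3–17.8 to 103–179 CPM (3.32 ± 0.26). None of these 4 genes was called different between the pairs. Actn1, the actin cross-linker of focal adhesions, rose by 2.83 ± 0.29 and was lower in the shallow than in the deep pair (log2 difference -1.16 ± 0.31). Markers of mural cells, which share Acta2 and Tagln, summed to 636 to 748 CPM at Day 0 and to 296 and 286 CPM in the deep and 222 and 235 CPM in the shallow pair. Of 9 markers none was called higher, 5 were called lower and 4 were not called. The part of mural cells in the levels of Acta2 and Tagln was not tested.

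Genes of the cell cycle rose in nearly all tested cases. Of 41, 37 were higher and 1, Pttg1, was lower (-0.50 ± 0.17), with a median log2 fold change of 3.53, 3.87 in the deep and 3.25 in the shallow pair. With the deep pair alone 39 were higher and none lower, and with the shallow pair alone 36 were higher and 2 lower. Top2a, the topoisomerase that resolves DNA in dividing cells (chr11:98992943-99024189, - strand), went from 4.66, 5.31, 6.38 and 5.43 CPM to 189.9 and 185 in the deep pair and 56.8 and 82.9 in the shallow pair (4.59 ± 0.39, adjusted p = 9.99e-09). Cdk1, the kinase that drives entry into mitosis (chr10:69335146-69352938, - strand), went from 0.385, 0.823, 0.752 and 0.906 CPM to 45.8 and 65.03 in the deep pair and 46.6 and 30.8 in the shallow pair (6.03 ± 0.42, adjusted p = 9.38e-10). All 4 Day 3 libraries lay above Day 0 for both genes, and the pairs differed for Top2a (-1.46 ± 0.40, adjusted p = 0.00605) and were not called different for Cdk1. Ccna2 (cyclin A2) rose by 4.97 ± 0.36, Plk1 (a mitotic kinase) by 5.72 ± 0.44 and Mki67, the proliferation antigen Ki-67, by 3.26 ± 0.43. Prc1, which bundles the spindle midzone, rose by 4.35 ± 0.35. Not all members were called: Ccnd1 (cyclin D1) had a log2 fold change of -0.14 ± 0.14 (adjusted p = 0.42) and the replicative helicase subunit Mcm4 0.60 ± 0.27 (adjusted p = 0.0759), while Mcm4 was 1.17 in the deep and -0.78 in the shallow pair.

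Histones that are made only during DNA replication were higher in 40 of 41 cases and lower in none (median 4.16, 4.55 in the deep and 2.65 in the shallow pair). Their summed level was 147, 142, 130.3 and 131 CPM at Day 0, 573 and 785 CPM in the deep pair and 967 and 881 CPM in the shallow pair. Hist1h3c, a histone H3 gene, went from 0.293–0.571 to 18.7–38.4 CPM (6.15 ± 0.55). Among 10 inhibitors of cyclin-dependent kinases, 5 were higher and 4 lower. Cdkn1a (p21), a brake on the cycle and a target of p53, fell from 216–260.4 to 70.96–166 CPM (-1.06 ± 0.21), and Cdkn3 rose by 3.78 ± 0.50.

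Promoters of the cell cycle genes shared letters that the list was not chosen by. In RefSeq (GRCm38.p6), 33 of the 41 genes had a promoter window of 250 bases before to 50 bases after the start, and both strands were searched. CCAAT, the letters bound by NF-Y, stood in 24 of 33 windows (72.7%), against 37.9% of all 27025 promoters. TTTGAA, the core of the cell cycle genes homology region, stood in 15 of 33 (45.5%), against 18.1% of all, and both together in 15 of 33, against 7.12% of all. The 4 stretches below, the 250 bases before the start of the listed members with the highest levels that held both motifs, are shown 5′ to 3′ on the gene's strand, with CCAAT (or ATTGG) and TTTGAA (or TTCAAA) in capitals.
Top2a (chr11:99024190-99024439, - strand): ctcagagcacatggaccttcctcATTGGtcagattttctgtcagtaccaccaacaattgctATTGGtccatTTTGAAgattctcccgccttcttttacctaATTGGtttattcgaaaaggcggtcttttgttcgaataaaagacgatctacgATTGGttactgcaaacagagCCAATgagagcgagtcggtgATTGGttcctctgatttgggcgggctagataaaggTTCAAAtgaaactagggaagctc
Mki67 (chr7:135716380-135716629, - strand): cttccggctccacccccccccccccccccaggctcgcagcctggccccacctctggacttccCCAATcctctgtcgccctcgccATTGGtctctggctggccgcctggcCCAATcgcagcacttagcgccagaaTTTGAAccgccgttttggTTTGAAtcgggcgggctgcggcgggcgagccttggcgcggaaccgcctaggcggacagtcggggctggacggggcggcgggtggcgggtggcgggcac
Prc1 (chr7:80294201-80294450, + strand): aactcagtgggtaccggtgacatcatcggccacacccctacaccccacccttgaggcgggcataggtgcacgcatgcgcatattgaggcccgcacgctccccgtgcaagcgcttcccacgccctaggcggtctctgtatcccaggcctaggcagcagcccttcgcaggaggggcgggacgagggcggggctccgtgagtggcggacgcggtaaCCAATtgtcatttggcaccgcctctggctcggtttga
Cdk1 (chr10:69352913-69353162, - strand): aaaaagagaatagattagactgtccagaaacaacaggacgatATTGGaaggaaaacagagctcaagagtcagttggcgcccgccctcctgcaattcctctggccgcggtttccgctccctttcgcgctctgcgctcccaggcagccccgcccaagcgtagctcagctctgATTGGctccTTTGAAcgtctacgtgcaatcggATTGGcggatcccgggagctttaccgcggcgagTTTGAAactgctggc
Top2a held 6 copies of CCAAT and 2 of TTTGAA in this stretch, and Mki67 and Cdk1 each held 3 and 2. In Prc1 the TTTGAA runs across the start of the gene and so is not in the stretch shown. These matches describe the letters only, and no binding was measured.

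Markers of resting fibroblasts fell together. Of 22 genes, none was higher and 17 were lower (median -1.31, -0.91 in the deep and -1.71 in the shallow pair), and their summed level was 35995 to 37419 CPM at Day 0 and 13009 to 16582 CPM at Day 3. Gsn (gelsolin, which severs actin, chr2:35256380-35307892, + strand) went from 16086, 16200, 14426 and 15448 CPM to 4786 and 4749 in the deep pair and 6221 and 7335 in the shallow pair (-1.43 ± 0.22, adjusted p = 2.28e-05). Dcn (decorin, a proteoglycan that binds collagen and TGF-beta, chr10:97479609-97518143, + strand) went from 9341, 9216, 10110 and 10586 CPM to 5786 and 3801 in the deep pair and 1644 and 2288 in the shallow pair (-1.54 ± 0.27, adjusted p = 1.03e-04). The lipid transporter Abca8a fell by 2.04 and Dpt (dermatopontin) by 1.37 on the log2 scale. Pi16, a marker of adventitial fibroblasts, went opposite ways in the pairs, with 304 and 369.6 CPM in the deep and 1248 and 1131 CPM in the shallow pair against 546 to 620.2 CPM at Day 0, and was not called with all 4 (0.37 ± 0.31, adjusted p = 0.326). All 4 markers that the study used for FB were called lower with all 4 libraries: Pdgfra went from 1054–1171 to 426–720.1 CPM (-0.99 ± 0.17), Ddr2 from 579–693 to 268–402 CPM (-0.98 ± 0.14) and Tcf21 from 116–143 to 36.4–70.1 CPM (-1.22 ± 0.22). The groups did not overlap for these 3, but they did for the fourth, Fap. With the deep pair alone 3 of the 4 were called lower. Without TMM scaling these 4 markers summed to 1928 to 2142 CPM in FB at Day 0, 1244 and 795 CPM in the deep pair and 414 and 461 CPM in the shallow pair. Every FB library thus lay above the other cell types, where the sum was 1.82 to 9.94 CPM in CM, 62.9 to 177 CPM in EC and 14.7 to 64.3 CPM in HC at these days. Cardiomyocyte markers of the study, on the same scale, summed to 289 and 206 CPM in the shallow pair and 12.2 and 14.6 CPM in the deep pair, against 2436 to 6183 CPM in CM, 670.2 to 2093 CPM in EC and 213 to 2207 CPM in HC.

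Transcription factors of mesenchymal cells moved both ways, 11 higher and 7 lower of 28. Runx1, a regulator of blood and injured stroma, went from 29.8, 25.8, 36.7 and 33.7 CPM to 143 and 167 in the deep pair and 191 and 161 in the shallow pair (2.39 ± 0.20, adjusted p = 6.79e-09). Wt1, of epicardium and mesothelium, went from 2.74–3.82 to 23.4–33.6 CPM (3.20 ± 0.35), and Sox4 from 42.6–50.3 CPM to 114 and 166 in the deep pair and 429 and 369.5 in the shallow pair (2.58 ± 0.29). Runx1 and Wt1 were near equal in the pairs, and Sox4 was higher in the shallow pair by 1.47 ± 0.22. Of 18 clock genes 1 was higher and 9 were lower (median -0.48). The clock activators Arntl and Npas2 fell by 0.93 and 2.13 on the log2 scale and the nuclear receptor Rora by 1.36, and the hour of tissue collection is not given in the sources used here.

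Signals of the TGF-beta and activin pathway gave 11 higher and 10 lower genes of 32, and growth factors with their receptors 12 and 10 of 32, so that neither list moved one way. Among ligands, Inhba (the activin A subunit) went from 37.1–57.6 to 77.6–129 CPM (1.22 ± 0.22), whereas Bmp4 fell from 45.9–50.8 to 2.70–21.8 CPM (-1.88 ± 0.30) and Bmp2 by 1.45 on the log2 scale. The latent TGF-beta binding protein Ltbp2 went from 37.2–50.95 to 235–337 CPM (2.67 ± 0.35). Of growth factors, Pdgfc went from 0.571–0.906 to 8.59–13.7 CPM (3.81 ± 0.35) and the EGF receptor ligand Ereg from 7.98–16 to 75.3–98.9 CPM (2.92 ± 0.33). Met, the receptor of hepatocyte growth factor, went from 0.241–0.385 to 3.38–16.1 CPM (4.97 ± 0.54). Of 13 secreted Wnt regulators 4 were higher and 4 lower, with Dkk2 at 3.87 ± 0.45 and Wif1 at -2.51. The median of this list was 0.28, -0.21 in the deep and 0.44 in the shallow pair.

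Cytokines and chemokines were higher in 17 and lower in 6 of 33 cases (median 0.66, 0.73 in the deep and -0.11 in the shallow pair). Cxcl5, which draws neutrophils, went from 14.6, 13.2, 18.7 and 20.99 CPM to 185 and 289 in the deep pair and 147 and 136 in the shallow pair (3.50 ± 0.40, adjusted p = 6.54e-07). The IL-6 family member Lif rose by 1.71 ± 0.19, and the alarmin Il33 by 1.73 ± 0.25. Il6 itself went the other way, from 697, 487, 800.2 and 1010.3 CPM to 449 and 317 in the deep pair and 324 and 215 in the shallow pair (-1.19 ± 0.25, adjusted p = 4.98e-04), below every Day 0 library. The eosinophil chemokine Ccl11 fell by 1.99 on the log2 scale. Of 24 complement and acute phase genes 10 were higher and 7 lower (median 0.42, 0.63 in the deep and -0.55 in the shallow pair). The acute phase genes Saa3 and Hp (haptoglobin) went from 1.08–1.93 to 73.7–166 CPM (6.24 ± 0.80) and from 1.09–1.47 to 20.7–69.1 CPM (5.01 ± 0.77).

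Interferon-stimulated genes gave 13 higher and 7 lower of 30 (median 0.32, 0.43 in the deep and -0.34 in the shallow pair), with Isg15 at 1.49 ± 0.26 and the GTPase Iigp1 at -1.92 ± 0.31. The motif GAAANNGAA of interferon response elements stood in 14 of 24 of their promoters (58.3%), against 8.57% of all. Immediate early genes, which also respond to enzymatic dissociation of tissue, gave 3 higher and 10 lower of 24. Egr1 went from 3573–4306 to 2158–2933 CPM (-0.67 ± 0.16) and Fos from 949–1089.7 to 353–749 CPM (-0.89 ± 0.19). The AP-1 motif TGANTCA stood in 0 of 20 of their promoters and in 2 of 8 of the 12 highest genes' promoters, against 7.93% of all. Hypoxia targets gave 6 higher and 6 lower of 16, with Hif1a itself at 1.23 ± 0.18, imprinted growth genes 4 and 3 of 13, and apoptosis regulators 9 and 5 of 24. For hypoxia targets the counts were 7 and 5 with the deep pair and 5 and 10 with the shallow pair. For imprinted growth genes they were 6 and 0 with the deep pair and 3 and 3 with the shallow pair. Bax, which permeabilizes mitochondria, stood at 9.72 to 11.8 CPM at Day 0, 14.2 and 30.1 CPM in the deep pair and 179 and 176 CPM in the shallow pair. Of 25 long noncoding RNAs 9 were higher and 6 lower. The imprinted H19 went from 5.86–15.2 CPM to 105 and 98.5 in the deep pair and 220.3 and 177 in the shallow pair (3.76 ± 0.34), and Gas5, a host of small nucleolar RNAs, stood at 168 and 216 in the deep pair and 949.5 and 1053 in the shallow pair against 141 to 165 CPM at Day 0.

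Energy metabolism moved up in nuclear genes of oxidative phosphorylation and in glycolysis genes, and down in most genes of the mitochondrial genome. Of 40 nuclear genes of oxidative phosphorylation 28 were higher and none lower (median 0.62, with 35 higher in the deep and 18 in the shallow pair). Atp5b, a subunit of ATP synthase, went from 222–259 CPM to 359 and 465 in the deep pair and 647 and 535 in the shallow pair (1.07 ± 0.14). Of the 13 mitochondrial genes 8 were lower (median -0.56), among them mt-Co1 (-0.69 ± 0.19). The gene that was higher, mt-Nd6 (1.82 ± 0.38), is the one on the other strand of the mitochondrial genome, and it stood at 133 and 326 in the deep pair and 734 and 822 in the shallow pair against 120 to 177 CPM at Day 0. Of 21 glycolysis genes 13 rose and 1 fell (median 1.13), with Pkm (pyruvate kinase) at 1.80 ± 0.18, Ldha (lactate dehydrogenase) at 1.58 ± 0.16 and Pfkp, a phosphofructokinase, at -1.01 ± 0.12. Fatty acid uptake and oxidation gave 8 higher and 5 lower of 29.

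Ribosomal protein genes showed how far the call of a list may rest on the choice of pair. In the deep pair 38 of 40 were higher and none lower (median 0.97), with the shallow pair 9 were higher and 17 lower (median -0.29), and with all 4 libraries 17 were higher and none lower. Rpl34, which the study followed in FB (chr3:130726831-130730398, - strand), stood at 253, 244, 222 and 250.2 CPM at Day 0 and at 384 and 513 in the deep pair and 128 and 112 in the shallow pair. The pairs lay on opposite sides of Day 0, and the log2 fold change with all 4 was 0.25 ± 0.32 (adjusted p = 0.55). Rplp0, of the ribosomal stalk, was above Day 0 in all 4 libraries, at 1025 to 2236 against 476 to 513 CPM (1.76 ± 0.19). Genes of ribosome biogenesis were higher in 17 of 24 cases and lower in 1 (median 0.70), with similar medians in the pairs (0.63 and 0.69). Npm1, a nucleolar chaperone, went from 191–239 CPM to 534 and 639 in the deep pair and 1635 and 2376 in the shallow pair (2.60 ± 0.31).

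**Figure D3:**
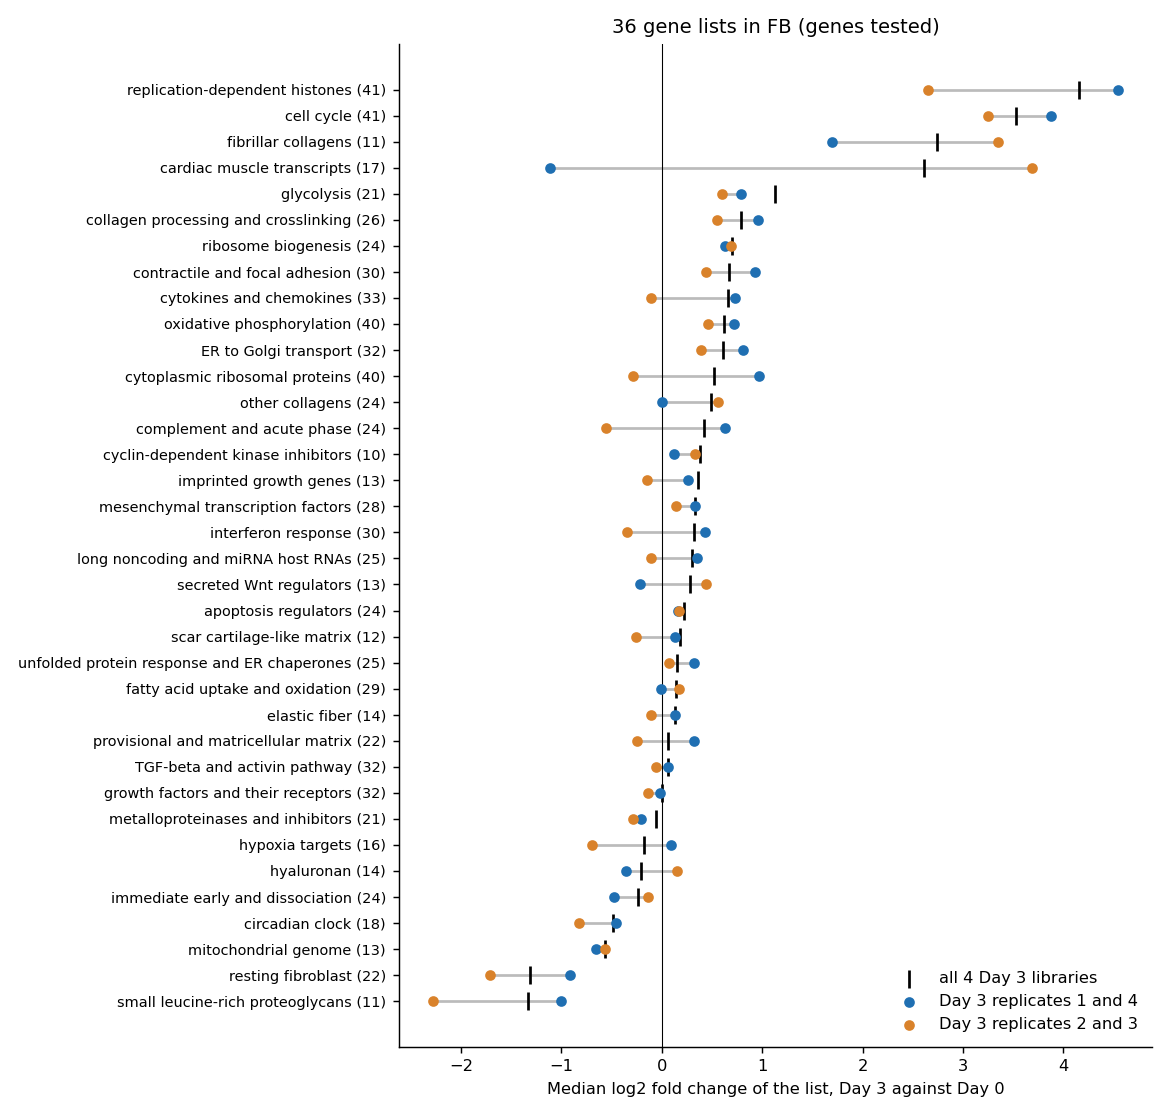
Horizontal position gives the median log2 fold change of each of 36 gene lists at Day 3 against Day 0, with a black bar for all 4 Day 3 libraries, blue for the deep pair, orange for the shallow pair and the number of genes tested in brackets. Histones, cell cycle and fibrillar collagens are the highest lists in the deep pair (4.55, 3.87 and 1.70), and cardiac muscle transcripts lie furthest apart, at -1.12 and 3.69.

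Cells other than fibroblasts were looked for with marker lists summed per library. The exact two-sided permutation test of 4 against 4 libraries cannot go below p = 0.0286, and none of 13 lists passed after adjustment over the lists (lowest adjusted p = 0.0531). A list at this lowest p could not pass on its own after adjustment over 13 lists, so that the test cannot show that a sum did not change. Mesothelial markers, of the sheet of cells over the heart surface, summed to 11.2 to 18.9 CPM at Day 0, to 195 and 258 CPM in the deep and to 106 and 135 CPM in the shallow pair. All 8 of these markers were called higher one by one, with Krt19 at 5.81 ± 0.59, Lrrn4 at 5.36 ± 0.58, Upk3b at 3.55 ± 0.49 and Msln (mesothelin) at 1.81 ± 0.34. On the deposited TPM values the sum was 7.68 to 10.6 TPM at Day 0, 37.5 and 19.9 TPM in the deep pair and 3.82 and 5.62 TPM in the shallow pair, so that its rise is not seen in the shallow pair on that scale. The markers moved with Krt8 and Wt1 above, and their part in those results was not tested. Cardiomyocyte markers of the study summed to 22.5 to 43.96 CPM at Day 0, to 12.2 and 18.6 CPM in the deep pair and to 520.4 and 365 CPM in the shallow pair, and none of the 4 was called higher with the deep pair alone. In TPM this sum was 15.8 to 30.3 at Day 0, 7.55 and 4.28 in the deep pair and 61.2 and 33.8 in the shallow pair. Monocyte and macrophage markers summed to 10.8 to 11.7 CPM at Day 0, 32.1 and 56 CPM in the deep pair and 97.99 and 70.8 CPM in the shallow pair, and 6 of 10 were called higher with all 4 libraries, 3 with the deep pair alone. Their TPM sum was 5.95 to 7.71 at Day 0, 22.3 and 17.2 in the deep pair and 9.15 and 6.41 in the shallow pair. The hematopoietic markers of the study stood at 1.41 and 1.66 CPM in the deep pair and 11.5 and 10.6 CPM in the shallow pair. Neutrophil markers summed to 55.9 to 79.9 CPM at Day 0, 111 and 90.8 CPM in the deep pair and 12.2 and 4.04 CPM in the shallow pair. The fall of this sum in the shallow pair came with Cxcr2, at 54.5 to 79.04 CPM at Day 0, 95.6 and 70.1 CPM in the deep pair and 6.76 and 0 CPM in the shallow pair, and the other markers tested, Lcn2 and Mmp8, were called higher in each pair. Schwann cell markers summed to 9.47 to 12.6 CPM at Day 0, 14.02 and 21.2 CPM in the deep pair and 114 and 85.4 CPM in the shallow pair. T and NK cell markers summed to 0.293 to 0.481 CPM at Day 0, 0.754 and 1.31 CPM in the deep pair and 9.46 and 11.6 CPM in the shallow pair. Both sums were highest in the shallow pair. Of the 6 T and NK markers only 1 passed the filter of the fit, and 1 CPM is 1.48 and 1.98 reads in the shallow libraries. On the deposited TPM values the T and NK sum was 0.0873 to 0.163 at Day 0, 0.457 and 0.285 in the deep pair and 0.507 and 0.595 in the shallow pair. Erythroid markers summed to 7271 to 12087 CPM at Day 0, 3267 and 15942 CPM in the deep pair and 6223 and 3780.4 CPM in the shallow pair. Resident macrophage markers summed to 4.15 to 6.72 CPM at Day 0, 6.79 and 8.69 CPM in the deep pair and 8.79 and 15.7 CPM in the shallow pair. In TPM this sum was 0.587 to 0.857 at Day 0, 0.673 and 0.462 in the deep pair and 0.368 and 0.411 in the shallow pair. B cell markers reached 4.42 CPM at most in any of the 8 libraries. Endothelial markers summed to 302 ± 57.2 CPM (SD, n = 4) at Day 0 and 218 ± 45.2 CPM (SD, n = 4) at Day 3.

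The genes furthest apart between the 2 pairs of Day 3 included transcripts that a fibroblast is not known for, and genes with no read in the shallow pair. Of 17 cardiac muscle transcripts, all were higher in the shallow than in the deep pair (median 4.89). Ttn (titin) stood at 39.97 to 76.3 CPM at Day 0, 15.6 and 18.3 CPM in the deep pair and 882 and 597 CPM in the shallow pair, Myh6 (alpha myosin heavy chain) at 18.9 to 42.1, 9.12 and 14.5 and 343 and 223 CPM, and Actc1 (cardiac actin) at 10.9 to 21.5, 5.52 and 6.48 and 235 and 161 CPM. In the deep pair none of the 17 was higher than at Day 0 and 3 were lower. The genes most in excess in the shallow pair were the vomeronasal receptors Vmn2r110 and Vmn2r25, the olfactory receptor Olfr160, the pituitary transcription factor Pou1f1 and the immunoglobulin receptor Fcgr2b. Vmn2r25 stood at 0.309 and 0.483 CPM in the deep and 499 and 556 CPM in the shallow pair, Pou1f1 at 0.103 and 0.828 and 341 and 388 CPM and Fcgr2b at 0.617 and 1.86 and 884 and 897 CPM, against 0.872 to 1.19 CPM of Fcgr2b at Day 0. Of 479 olfactory and vomeronasal genes 118 (24.6%) were higher and 54 (11.3%) lower in the shallow than in the deep pair, against 16.5% and 23.9% of all genes. Their summed level was 3583 and 3990 CPM in the shallow pair, 1783 and 1247 CPM in the deep pair and 2150 to 2985 CPM at Day 0. The lowest were Rps27rt, Plac9a, Fam177a, Zfp940 and Hsd3b2, which had no read in either shallow library and 71.5 and 47.8, 12.9 and 51.6, 37.2 and 21.2, 32.7 and 23.2 and 34.04 and 10.9 CPM in the deep pair. At Day 0 these genes stood at 31.6 to 118 CPM. Of 1827 tested genes on the other strand of a more abundant gene 443 (24.2%) were called higher at Day 3 with all 4 libraries, against 25.8% of all genes. That share does not compare the pairs. The 562 rare genes of this kind summed, without TMM scaling, to 777 and 836 CPM in the shallow and 133 and 110 CPM in the deep pair. The strand setting of the counting is not given in the sources used here.

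Placed in the course of the days, Day 3 differed from Day 1 at 15.4% of genes higher and 10% lower, and from Day 7 at 19.5% higher and 16.6% lower. Without the shallow pair these shares were 8.06% and 4.01% against Day 1, and 17% and 12.3% against Day 7. The count against Day 1, 4743 genes, was 7457 without Day 3 replicate 1 and 3140 without Day 3 replicate 3. Cell cycle genes were higher at Day 3 than on either side, with 30 of 41 above Day 1 (median 1.90) and 38 above Day 7 (median 1.68), and histones in 26 and 39 of 41 cases. In the deep pair alone 27 cell cycle genes were above Day 1 and 40 above Day 7. Top2a was 1.71 ± 0.34 above Day 1 and 1.68 ± 0.34 above Day 7 on the log2 scale. Fibrillar collagens were above Day 1 in 9 of 11 cases, with Col1a1 at 3.30 ± 0.35, and with the deep pair alone in 8. Against Day 7 5 were higher and 3 lower, and with the deep pair alone 0 were higher and 4 lower (median -0.21). Cthrc1 and Kif26b stood 3.85 ± 0.31 and 4.07 ± 0.44 above Day 1 and were not called different from Day 7 (adjusted p = 0.0599 and 0.793). Postn had a log2 fold change of -1.67 ± 0.42 against Day 7. Among genes of at least 10 CPM on average the lowest at Day 3 against Day 7 were the matrix genes Fmod (-3.18 ± 0.46) and Comp (-2.77 ± 0.51), with Angptl7 (-2.23 ± 0.27), the oxidase Nox4 (-2.14 ± 0.37) and Pamr1 (-2.01 ± 0.17), and 11 of 12 genes of cartilage-like scar matrix were below Day 7 (9 with the deep pair alone). Among the 5 lowest against Day 1 were Galnt15 (-1.89 ± 0.42), Wif1 (-1.77 ± 0.30), Fmo2 (-1.77 ± 0.36) and the acute phase protease inhibitor Serpina3n (-1.72 ± 0.36). The highest against Day 1 (Olfr1039, Vmn2r25, Fcgr2b, Pou1f1 and Nkx2-1) and 4 of the 5 highest against Day 7, all but Lars2, were genes of the shallow pair, at under 2 CPM in each library of the deep pair. Oxidative phosphorylation genes were above Day 7 in 38 of 40 cases (median 0.91) and above Day 1 in 8, and with the deep pair alone in 39 and 0.

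**Figure D4:**
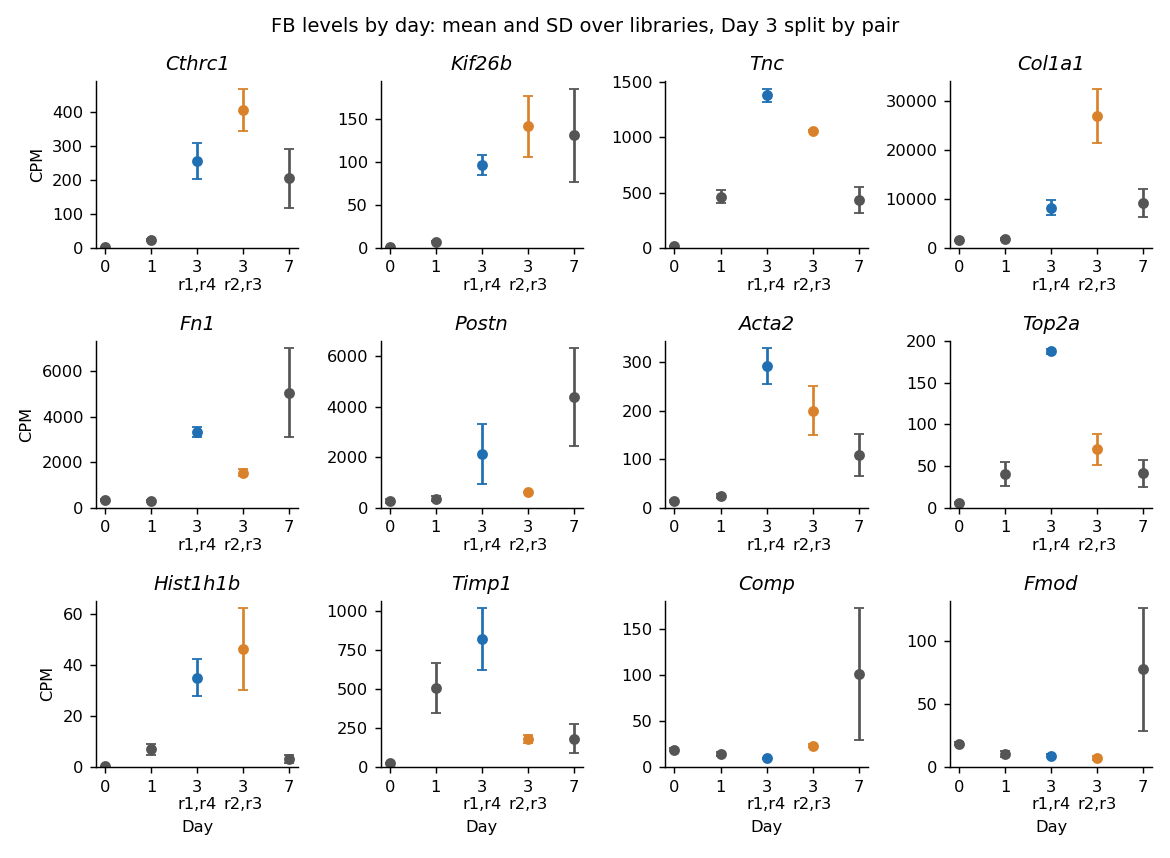
Points give the mean level in CPM (linear axes from 0) and bars the SD over libraries of FB at Day 0, 1, 3 and 7, with Day 3 split into the deep pair (r1, r4, blue) and the shallow pair (r2, r3, orange), and 4 libraries at each other day. Cthrc1 and Kif26b rise between Day 1 and Day 3, Tnc, Acta2 and Top2a peak at Day 3 in both pairs, and Comp and Fmod are highest at Day 7.

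Set against the mean change of CM, EC and HC over the same days, the change in FB was higher at 13.1% of 20033 genes and lower at 15.2%. Of the called genes 46.4% were higher, and 57.7% with DESeq2, and the count of 5675 was 3525 with the deep pair alone. Cell type and library preparation coincide in the series, and this comparison uses only changes within a cell type. The FB, CM, EC and HC pools of a day came from the same animals, which the fit did not take into account. Of 30 contractile and focal adhesion genes the difference was higher in FB in 10 and lower in 4 (median 0.15), and with the deep pair alone 11 and 2. The median change of the list was 0.85 in CM, 0.52 in EC and 0.20 in HC. Among the genes that rose more in FB, Acta2 changed by 0.62 in CM, -0.16 in EC and -1.83 in HC (difference 4.52 ± 0.22, adjusted p = 1.04e-14), Tagln differed by 3.88 ± 0.24 and Palld by 4.38 ± 0.18. Kif26b (5.47 ± 0.35, adjusted p = 1.85e-12), Ptprn (6.47 ± 0.50), Pdgfc (3.05 ± 0.36) and Wt1 (3.40 ± 0.22) also rose more in FB. Nuclear genes of oxidative phosphorylation were higher in 31 of 40 differences (median 0.94) and in 31 with the deep pair alone, and their median change was -0.23 in CM, -0.66 in EC and -0.66 in HC. Cardiomyocyte markers of the study fell in EC and HC over these days. Without TMM scaling they summed to 1339–2093 CPM at Day 0 and 670–1172 CPM at Day 3 in EC. In HC the sums were 1604–2207 and 213–414 CPM. The part of this in the EC and HC changes was not tested. Fibrillar collagens had median changes of 3.29 in CM and 2.91 in EC libraries, and relative to those cell types together with HC 1 of 11 were higher and 0 lower in FB with all 4 libraries, and 1 higher and 7 lower with the deep pair alone. Fibroblast markers of the study, without TMM scaling, rose from 1.82–3.65 to 6.08–9.94 CPM in CM and from 62.9–92.5 to 102–177 CPM in EC. In HC they fell from 46.5–64.3 to 14.7–29.3 CPM. The part of fibroblast RNA in the collagen changes of these libraries was not tested. For cytokines the difference was lower in FB in 16 of 32 cases, and in 14 of 33 with the deep pair alone. Il6 changed by 5.13 in CM, 2.86 in EC and 2.62 in HC, against its fall in FB (difference -4.85 ± 0.47, adjusted p = 1.28e-08). Thbs1 (thrombospondin 1) changed by 3.68, 3.45 and 5.56 in CM, EC and HC (difference -4.76 ± 0.26), and Fosl1, an AP-1 subunit, by 7.14, 2.39 and 2.30 (difference -4.24 ± 0.87). For resting fibroblast markers the difference was lower in FB in 14 of 22 cases (14 with the deep pair alone), with a median change of 0.58 in CM, 0.23 in EC and -1.49 in HC. The rare genes on the other strand, at 2064 and 2015 CPM, were also high in EC replicates 1 and 2 of Day 0, and the part of this in the EC changes was not tested.

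**Figure D5:**
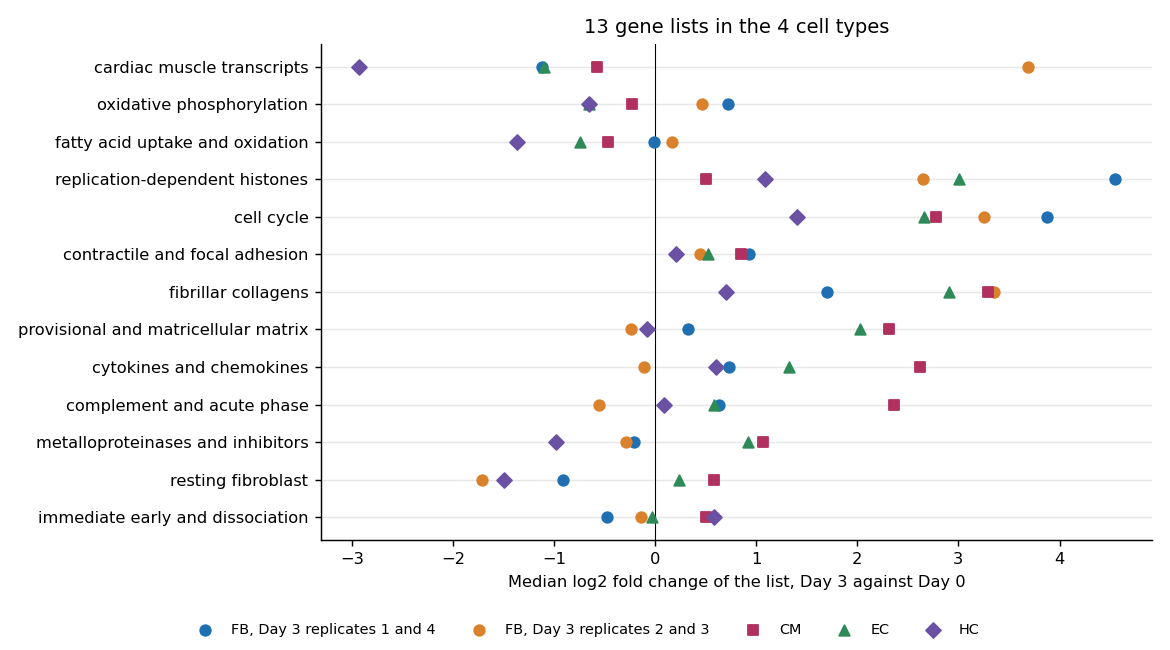
Horizontal position gives the median log2 fold change, Day 3 against Day 0, of 13 gene lists in FB (blue, deep pair; orange, shallow pair), CM (squares), EC (triangles) and HC (diamonds). Oxidative phosphorylation is above 0 in FB only (0.72 and 0.46), and provisional matrix and cytokines are highest in CM (2.31 and 2.62).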

How the data were processed

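Total RNA was made into libraries with the CATS Total RNA-seq kit after depletion of rRNA. Per the labels, the authors trimmed reads with Trim Galore and used STAR 2.28 and Salmon with mm10, and they deposited expected counts (Salmon's estimated count of reads per gene) and TPM (a length-scaled share of the library) for each library, without pooling libraries. The entries of an FB file numbered 51398, of which 369 were single transcripts. These were summed to their gene with names and coordinates of GENCODE M21, and 0.285% of reads at most had no gene.

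Estimated counts were rounded, and edgeR 4.0.16 (quasi-likelihood test, robust, TMM, filterByExpr) in R 4.3.3 was fitted across all genes of the 24 FB libraries. The change in FB against CM, EC and HC was an interaction over their Day 0 and Day 3 libraries. The p-values were adjusted by the Benjamini-Hochberg method over all genes tested, with a threshold of 0.05. Comparisons with the deep or the shallow pair left the other 2 libraries out of the fit. CPM used TMM-scaled library sizes that include rRNA. Library totals of 2664338 to 36545715 reads set the precision of low levels. Samples were grouped by their labels. Alternatives used DESeq2 1.42.0, limma 3.58.1 (voom with quality weights, or TPM with a pseudocount of 1), other filters, thinned counts and left-out libraries. On simulated counts with 200 changed genes, edgeR recovered most of the genes changed by 2 on the log2 scale. These counts had the real library depths and a fixed dispersion, but not the other differences between the 2 pairs of Day 3.

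Genes were named if they belonged to 1 of 36 gene lists or 13 marker lists, or were the 12 highest or lowest by the rule given in the report, or, without the condition on the pairs, the 5 highest and lowest of the other comparisons. Members and lists were chosen with earlier results of these data known. Which 2 Day 3 replicates of FB the study set aside is not given in the sources used here, and all 4 were kept. A few genes that the naming rule covers are not reported here.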

Additional observations from a re-analysis of the deposited data

Results flagged for a closer look

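Of 294 groups of 4 libraries tested for 1 library far from the rest, 12 held one, and chance gives about 1 in 20. The gap of the far library, as a share of its group's range, was 0.886 for Actc1, 0.833 for Col1a2, 0.916 for Il33, 0.871 for Lrrn4, 0.839 for Npas2, 0.953 for Sox4, 0.830 for Timp3, 0.915 for Tnc and 0.837 for Upk3b at Day 0. At Day 3 it was 0.863 for Abca6, 0.834 for Adam12 and 0.880 for Rora.

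The change in FB differed from the mean change in CM, EC and HC, by the interaction test in edgeR, at the 10 genes chosen as most apart. The difference was 10.47 for Vmn2r25, 9.34 for Olfr1039, 9.23 for Pou1f1, 9.21 for Nkx2-1 and 8.29 for Mylk4 on the log2 scale. The first 4 of these stood under 2 CPM in each library of the deep pair, and Mylk4 stood at 0.583 and 1.03 CPM in the deep pair and 184 and 227 CPM in the shallow pair. Without the shallow pair these 5 differences were 1.20, 1.53, 0.62, 1.82 and 1.40, and Mylk4 alone was still called (adjusted p in edgeR 0.0204, against 0.452 to 0.813 for the others). The difference was -5.24 for Gpnmb, -4.85 for Il6, -4.76 for Thbs1, -4.60 for Hmox1 and -4.24 for Fosl1. In the deep pair alone they were -5.49, -4.58, -4.62, -4.70 and -3.60.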

How the results depend on the processing

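The number of genes called at Day 3 against Day 0, 9162 with all FB libraries in the fit, was 5392 when only the 8 libraries entered the fit and 3873 when these were thinned to the shallowest. Counts with 1 library left out were 8182 to 10171 against Day 0, 3140 to 7457 against Day 1, 5234 to 8338 against Day 7 and 4504 to 7418 against the other cell types. With limma on TPM 14126 genes were called against Day 0, 12975 against Day 1 and 11541 against Day 7, of which 4.06%, 2.87% and 3.33% were higher, and with TPM scaled by TMM, chosen after seeing the data, 7879 against Day 0. Without the shallow pair 2346 genes were called against Day 1 and 3525 against the other cell types. Between the pairs 4154 genes were called from the 4 Day 3 libraries alone and 3419 after thinning.

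Single genes reversed in few cases. In the deep pair alone the log2 fold change was -0.150 for Col5a3, -0.497 for Col6a1, -1.213 for Myh6, -1.672 for Ttn, -1.211 for Actc1 and, against Day 1, -0.161 for Nkx2-1. With voom and quality weights it was -0.722 for Myh6, -1.115 for Ttn and -0.779 for Actc1. With TPM relative to the median of all genes it was -0.560 for Col5a3 and -0.757 for Msln, and -0.237 for Msln with TPM scaled by TMM. The cause was not tested.

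The main fit did not pair libraries by replicate number. Deviations of same-numbered libraries from their group means correlated at -0.0681 to 0.0611 between Day 0 and Day 3. Between Day 0 and Day 1 they correlated at -0.0535 to 0.399, and between Day 0 and Day 7 at -0.145 to 0.171. The deviations at Day 3 include the split of the 2 pairs, so that they cannot exclude pairing by number. With a replicate block 8821 genes were called against Day 0, 4206 against Day 1, 6356 against Day 7 and 5547 against the other cell types. The depth of the shallow pair, 2664338 and 3508819 reads, limits what can be seen of rare genes, since 1 TMM-scaled CPM is 1.48 and 1.98 reads there.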
